A study of Mus musculus with 4 samples.

Results

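The transcription factors of the activator protein 1 (AP-1) family and the early growth response family were examined in mouse cancer-associated fibroblasts (CAFs), the fibroblasts that live within a tumour. The 10 members were chosen by gene symbol: Fos, Fosb, Fosl1, Fosl2, Jun, Junb, Jund, Atf3, Egr1 and Egr3. All 10 were present among the 23377 gene symbols of the count table, and 9 of them passed the filter on low counts. Polyadenylated RNA was sequenced in 4 libraries. The 2 RES4 libraries were labelled as CAFs associated with resistant tumours, and the 2 WTA libraries as CAFs associated with normal tumours. No strain, age, treatment or cell sorting step is given for either group, and within a group the titles differ only in the replicate number, so a trait of a single tumour or culture cannot be told apart from the group. The series concerns lactate release by cancer cells and adaptive resistance to drugs against MET and EGFR, and the comparison asked how the CAFs of RES4 differ from those of WTA.

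AP-1 is a pair of proteins held together by leucine zippers. FOS proteins bind DNA only when paired with a JUN protein, whereas JUN proteins can also pair with each other, and ATF3 pairs with itself or with JUN proteins. The EGR proteins are zinc finger factors that bind a GC-rich element. Most of these genes are immediate-early genes, switched on within minutes by serum, growth factors or stress through MAP kinases, and in fibroblasts AP-1 is best known for driving matrix metalloproteinase genes.

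The 250 bases before the annotated start of 3 members are shown, for Atf3 because it differed most between the groups and for Fos and Jun because their control by ATF and AP-1 proteins is the textbook case. The sequences are RefSeq's, build GRCm38.p6, written 5′ to 3′ on the gene's strand, and capitals mark the motifs found.
Atf3, chr1:191183334-191183583, minus strand: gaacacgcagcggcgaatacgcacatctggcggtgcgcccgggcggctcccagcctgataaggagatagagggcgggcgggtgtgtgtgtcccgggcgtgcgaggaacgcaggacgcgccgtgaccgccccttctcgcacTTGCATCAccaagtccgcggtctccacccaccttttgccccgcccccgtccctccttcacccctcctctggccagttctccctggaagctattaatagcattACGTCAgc
Fos, chr12:85473640-85473889, plus strand: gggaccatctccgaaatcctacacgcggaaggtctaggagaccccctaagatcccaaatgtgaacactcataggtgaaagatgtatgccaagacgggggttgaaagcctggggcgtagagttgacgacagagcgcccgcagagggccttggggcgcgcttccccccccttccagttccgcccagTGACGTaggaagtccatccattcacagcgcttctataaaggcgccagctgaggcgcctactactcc
Jun, chr4:95052223-95052472, minus strand: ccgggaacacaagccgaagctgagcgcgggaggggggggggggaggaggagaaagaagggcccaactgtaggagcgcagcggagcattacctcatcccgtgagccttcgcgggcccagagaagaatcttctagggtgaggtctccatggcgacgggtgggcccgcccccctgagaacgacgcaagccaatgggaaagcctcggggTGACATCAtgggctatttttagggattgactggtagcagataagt
In Atf3 the capitals mark the core of the cyclic AMP and ATF element, TGACGT, read on the opposite strand and starting 8 bases before the annotated start, and an element bound by C/EBP and ATF proteins together, TGATGNAA, also on the opposite strand, 110 bases before it. Fos held TGACGT 66 bases before its start. Jun held the variant TGACATCA 45 bases before its start. Both strands were searched. TGACGT occurred in 6.47%, TGATGNAA in 3.45% and TGACATCA in 2.93% of 32851 promoter windows of the same length. Of the 7 members searched, none held the AP-1 element TGANTCA or the full element TGACGTCA, which 6.75% and 1.55% of the windows held; the full element contains TGACGT. The EGR element GCGNGGGCG was found for Fosl2 and Fosb and in 4.70% of the windows. These matches describe the letters in the windows and show no binding.

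Depth ran from 2785936 to 2845237 reads in RES4 and from 3948066 to 5558541 reads in WTA, so that a count of 0 allows up to 3 reads, or 1.10 to 1.14 CPM (reads scaled to a common library size) in RES4 and 0.503 to 0.741 CPM in WTA, counting error only. Of 12001 genes tested with edgeR's quasi-likelihood test, 1857 were higher and 1668 lower in RES4. Without WTA replicate 1 these counts were 1198 and 1090, and without WTA replicate 2 they were 1078 and 951. The cell markers also differed. Summed over 14 fibroblast markers, RES4 held 9731 and 8837 CPM, against 4008 and 3259 CPM in WTA. Of the 13 tested 12 rose, among them the collagen genes Col1a2 (log2 fold change 0.81 ± 0.20) and Col1a1 (0.66 ± 0.20). Some others differed far more. Pdgfra had 1119.4 and 881.2 CPM in RES4, against 29.7 and 7.41 CPM in WTA. Dcn had 92.5 and 127.0 CPM in RES4, against 0.743 and 0.168 CPM in WTA. Col5a1 did not pass. Under 14 other settings Col1a2 passed in 13 and Col1a1 in 8. Of 9 tested Schwann cell and neural crest markers, 2 rose and 7 fell. Their list of 12 summed to 259 and 285 CPM in RES4, against 1422 and 1262 CPM in WTA. The myelin gene Pmp22 formed most of the RES4 sum and moved against it, with 237.8 and 259.5 CPM in RES4 and 136.3 and 123.0 CPM in WTA; without it the sums were 21.3 and 25.7 CPM in RES4 and 1286 and 1139 CPM in WTA. The neurotrophin receptor gene Ngfr had 3.42 and 3.30 CPM in RES4, against 493 and 462.4 CPM in WTA. The rise of Pmp22, 0.94 ± 0.26, did not pass without WTA replicate 1 (adjusted p = 0.215) or 2 (adjusted p = 0.346). Of 8 tested smooth muscle and pericyte markers 2 rose and 2 fell, and the list summed to 629.7 and 796.8 CPM in RES4 and 1085 and 946 CPM in WTA. The lower RES4 sum came from the 2 that fell, Mcam, with 17.9 and 27.9 CPM in RES4 and 284.7 and 265.9 CPM in WTA, and Cspg4. Without Mcam the groups overlapped (611.8 and 768.9 CPM in RES4, 800.3 and 679.8 CPM in WTA), and without both RES4 was higher (592.1 and 756.1 CPM, against 519.1 and 486.8 CPM in WTA). The contractile gene Acta2 did not pass. The sums with genes left out were chosen after the values were seen, as were Cspg4, Pdgfra, Dcn and Col5a1. The epithelial genes Epcam and Cdh1 and the leukocyte gene Ptprc had no read in any library. The 9 epithelial markers summed to 46.4 and 63.9 CPM in RES4 and 10.2 and 9.93 CPM in WTA, mostly Krt19; Krt14 had no read in RES4 and 12 and 15 reads in WTA. The 9 leukocyte markers summed to 20.2 and 29.0 CPM in RES4 and 8.42 and 9.76 CPM in WTA. Among them Lyz2 had 7.61 and 7.71 CPM in RES4 and 0.496 and 1.18 CPM in WTA, and the untested Cd14 had 3.04 and 10.6 CPM in RES4 and 1.24 and 2.36 CPM in WTA. The 7 endothelial markers, led by Vwf and Tek and all too low to be tested, summed to at most 5.95 CPM in any library. The part of these markers in the results that follow was not tested.

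Atf3 fell most, Jund fell and Egr1 rose in RES4; the other 6 tested members did not pass the test. A gene counts as called at a Benjamini-Hochberg adjusted p under 0.05 over all 12001 genes. With 1 member called higher and 2 called lower, the 9 tested members stand beside a background of 29.4% of all tested genes called in either direction (15.5% higher and 13.9% lower), so the share of called members is close to that of genes at large. Group ranges did not overlap for 6 of the 9, 2 of them higher and 4 lower in RES4, as for 64.7% of all tested genes (31.9% higher, 32.9% lower). Without RES4 replicate 1 the members called were 1 higher and 4 lower, without RES4 replicate 2 they were 2 and 1, without WTA replicate 1 they were 0 and 2, and without WTA replicate 2 they were 0 and 1. The members' median log2 fold change was -0.63, against -0.0036 for all tested genes. That median is the value of Fos, which was not called, and the tested members split into 4 positive and 5 negative. In the authors' deposited table, 1 member was called, Atf3, as lower, where 8.50% of genes were called (4.89% higher and 3.61% lower). That count is not on the criterion used here: the genes called in the authors' deposited table had adjusted p-values up to 0.0999 and absolute log2 fold changes of at least 2.0. In bulk RNA, fewer cells of a type and less RNA per cell cannot be told apart.

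**Figure D1:**
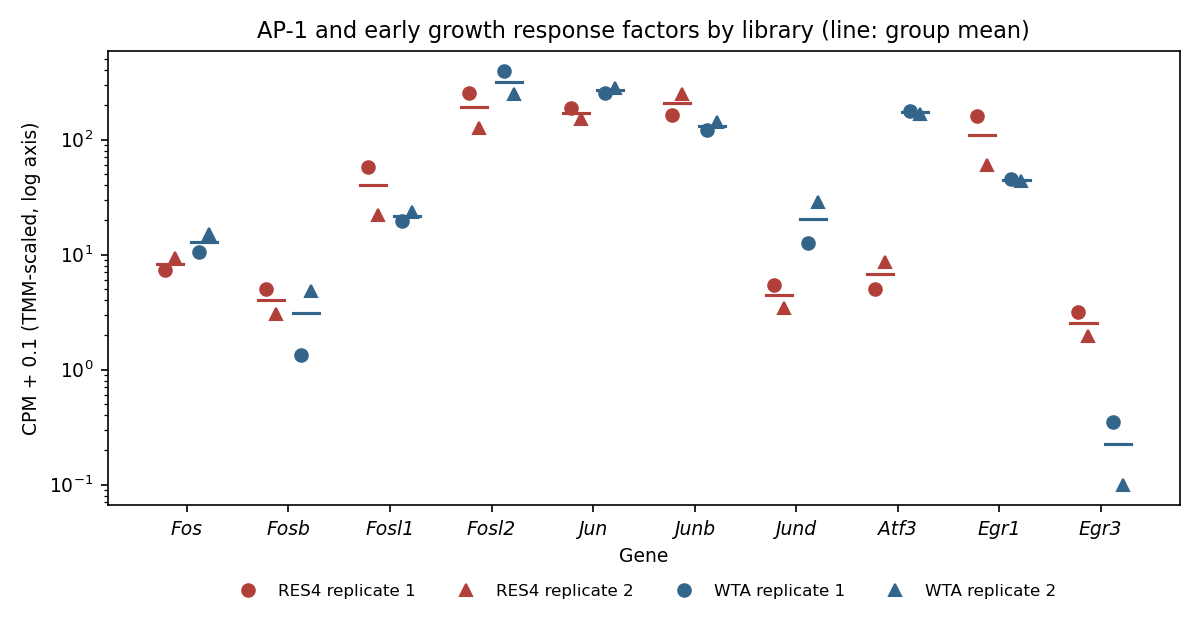
Level of each member in each library, in CPM plus 0.1 on a log axis; RES4 is red and left, WTA blue and right, circles are replicate 1, triangles replicate 2 and lines group means. Atf3 lies at 4.95 and 8.44 CPM in RES4 and at 179 and 166 CPM in WTA, the widest gap among the tested members, while Fosb, Fosl1 and Fosl2 overlap between the groups.

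Atf3 encodes a stress-induced factor of the ATF family that mostly represses its targets, its own promoter included. It had 13 and 23 reads in RES4, or 4.95 and 8.44 CPM, against 723 and 984 reads in WTA, or 179 and 166 CPM. Both WTA libraries stood far above both RES4 libraries, and the WTA replicates lay close together. The mean was 6.69 ± 2.47 CPM in RES4 and 172 ± 9.55 CPM in WTA (SD, n = 2 each), a 25.6-fold difference with a log2 fold change of -4.68 ± 0.41 (SE) and an adjusted p of 9.98e-06 (edgeR). Only 4.40% of the tested genes had a larger absolute log2 fold change. Per kilobase of exonic length, Atf3 ranked above 20.4% of the tested genes in RES4 and above 95.9% in WTA. Its level per kilobase was 0.0386 and 0.0831 times that of Jun in the RES4 libraries, and 1.04 and 0.869 times in the WTA libraries, so that in WTA it stood beside the most abundant AP-1 genes. The call held in each of 14 other settings, with log2 fold changes from -5.12 to -4.34 and adjusted p-values from 9.11e-27 to 0.000716. The authors' deposited table gives -4.71 ± 0.43 (SE) for this gene.

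The 3 genes outside the family whose centred log2 profile lay nearest to that of Atf3 over the 4 libraries were Ptpru, a receptor tyrosine phosphatase gene, Scrn1 and Dusp8, a phosphatase that acts on MAP kinases. Their distances were 0.129, 0.163 and 0.190 on the log2(CPM + 1) scale. Scrn1 had a log2 fold change of -4.87 ± 0.46 and Dusp8 of -5.61 ± 0.62. Ptpru had 2 reads in RES4 and 304 in WTA, a WTA-to-RES4 ratio of 90.0 (95% counting interval 24.7 to 746.8, exact binomial). Here and below, counting intervals leave out the spread between replicates. With 4 libraries in 2 groups, the nearness of these profiles mainly describes the size of the group difference on that scale. The added 1 CPM shrinks the difference of a gene near 0 in RES4. For Ptpru the edgeR log2 fold change was -6.23 ± 0.75, larger than that of Atf3.

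Jund encodes the JUN protein that is usually present without stimulation and that slows fibroblast growth. It had 14 and 9 reads in RES4, or 5.33 and 3.30 CPM, against 50 and 170 reads in WTA, or 12.4 and 28.6 CPM. Every RES4 library lay below every WTA library, but the WTA replicates were themselves far apart. The log2 fold change was -2.25 ± 0.57, a 4.77-fold difference (edgeR adjusted p = 0.00951). It did not pass without RES4 replicate 2 (-1.96, adjusted p = 0.0806) or without WTA replicate 2 (-1.56, adjusted p = 0.185). In the GRCm38 annotation the antisense gene Gm11175 shares 877 exonic bases with Jund, and reads of the pair could not be told apart without strand. The authors' deposited table gives Jund -2.29 ± 0.71 with an adjusted p of 0.468. DESeq2 run here gave -2.26 with an adjusted p of 0.00872, so the deposited adjusted p is not comparable with those of the tests here. How the deposited p-values were made is not stated, but they do not read as tests against a difference of 0. Pdgfa, for example, has -2.05 ± 0.39 in that table with an adjusted p of 0.0799. A high deposited adjusted p, as for Jund, therefore does not show that the groups were alike.

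The other JUN genes moved apart, without either passing the test. Jun, the founding member and the strongest activator among them, stood at 189.5 and 150.5 CPM in RES4 and at 255.7 and 282.3 CPM in WTA. Both RES4 values were below both WTA values, with a log2 difference of -0.66 ± 0.25 (adjusted p = 0.0703). With RES4 replicate 1 left out it was -0.83 and passed (adjusted p = 0.0200). It passed too with the replicate number as a block (adjusted p = 0.0404), with library totals in place of TMM (-0.80, adjusted p = 0.0226), without a low-count filter (adjusted p = 0.0425) and with offsets for read density (-0.75, adjusted p = 0.0394). In all, Jun passed in 5 of 14 other settings. Among those where it did not pass was DESeq2 (-0.67, adjusted p = 0.104). Its log2 difference was -0.51 without RES4 replicate 2, -0.80 without WTA replicate 1 and -0.63 without WTA replicate 2. Junb, a weaker activator that can restrain Jun, stood at 164.8 and 251 CPM in RES4 and at 120.2 and 143.1 CPM in WTA. Its log2 fold change was 0.66 ± 0.29 (adjusted p = 0.113), and 0.94 without RES4 replicate 1, where it passed (adjusted p = 0.0126). With RES4 replicate 2 left out it was 0.32 (adjusted p = 0.293). Junb overlaps Prdx2 by 173 exonic bases and Jun overlaps the antisense gene Junos by 232.

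Within the JUN family the order of Jun and Junb differed between the groups. Per kilobase of exonic length, Junb was 1.21 and 2.31 times as abundant as Jun in the RES4 libraries, and 0.651 and 0.702 times in the WTA libraries. Junb made up 53.3% and 68.9% of the family in RES4, against 37.3% and 37.0% in WTA. Jun made up 44.3% and 29.8% in RES4, against 57.3% and 52.7% in WTA, and Jund 2.38% and 1.25% against 5.31% and 10.2%. Per coding length Junb held 45.1% and 61.3% in RES4 and 30.3% and 30.9% in WTA, so that Jun led in RES4 replicate 1 on that scale. The shares are descriptions with no test.

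The FOS genes showed no call. Fosl2 (Fra-2), a late and lasting FOS protein without a strong activation domain, had the most reads of them, with 254.9 and 127.4 CPM in RES4 and 392.4 and 248.4 CPM in WTA. The groups overlapped in that RES4 replicate 1 exceeded WTA replicate 2. The log2 fold change was -0.74 ± 0.34 (adjusted p = 0.122). It passed without RES4 replicate 1 (-1.32, adjusted p = 0.0164), with library totals (-0.89, adjusted p = 0.0198), without a low-count filter (-0.80, adjusted p = 0.0139) and with the replicate block (-0.79, adjusted p = 0.0110); without RES4 replicate 2 it was -0.33 and without WTA replicate 1 -0.45. Fosl1 (Fra-1), linked to invasion and to mesenchymal traits, stood at 57.8 and 22.0 CPM in RES4 and at 19.6 and 23.6 CPM in WTA. RES4 replicate 1 alone lay above the others. The log2 fold change of 0.88 ± 0.48 (adjusted p = 0.197) was 0.03 without that library and 1.42, past the test, without RES4 replicate 2 (adjusted p = 0.0203). Ccdc85b, on the opposite strand, shares 1163 exonic bases with Fosl1 and had 165 and 56 reads in RES4, in step with the 152 and 60 reads of Fosl1, and 207 and 359 reads in WTA, where Fosl1 had 79 and 140.

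Fos, the prototype immediate-early gene, was low in all libraries, with 7.23 and 9.18 CPM in RES4 and 10.4 and 15.0 CPM in WTA. The groups did not overlap, but the log2 fold change of -0.63 ± 0.47 did not pass (adjusted p = 0.359). Fosb had 13 and 8 reads in RES4 and 5 and 28 reads in WTA. Its log2 fold change of 0.34 ± 0.67 (adjusted p = 0.759) turned negative without RES4 replicate 1 (-0.08), without WTA replicate 1 (-0.33) and with offsets for read density (-0.42), so these counts set no direction. Per kilobase of exonic length Fosl1 and Fosl2 together formed most of the FOS family in every library. Fosl1 held 48.5% and 38.2% in RES4, against 17.6% and 26.1% in WTA. Fosl2 held 44.9% and 46.4% in RES4, against 74.0% and 57.8% in WTA. The size of these shares rests on the length, since the annotated Fosl2 is 9680 bases long and Fosl1 2033. Per coding length Fosl1 held 20.6% and 16.0% in RES4 and 5.49% and 9.57% in WTA, and Fosl2 led in all libraries. On both scales each RES4 library had a larger Fosl1 share than each WTA library.

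**Figure D2:**
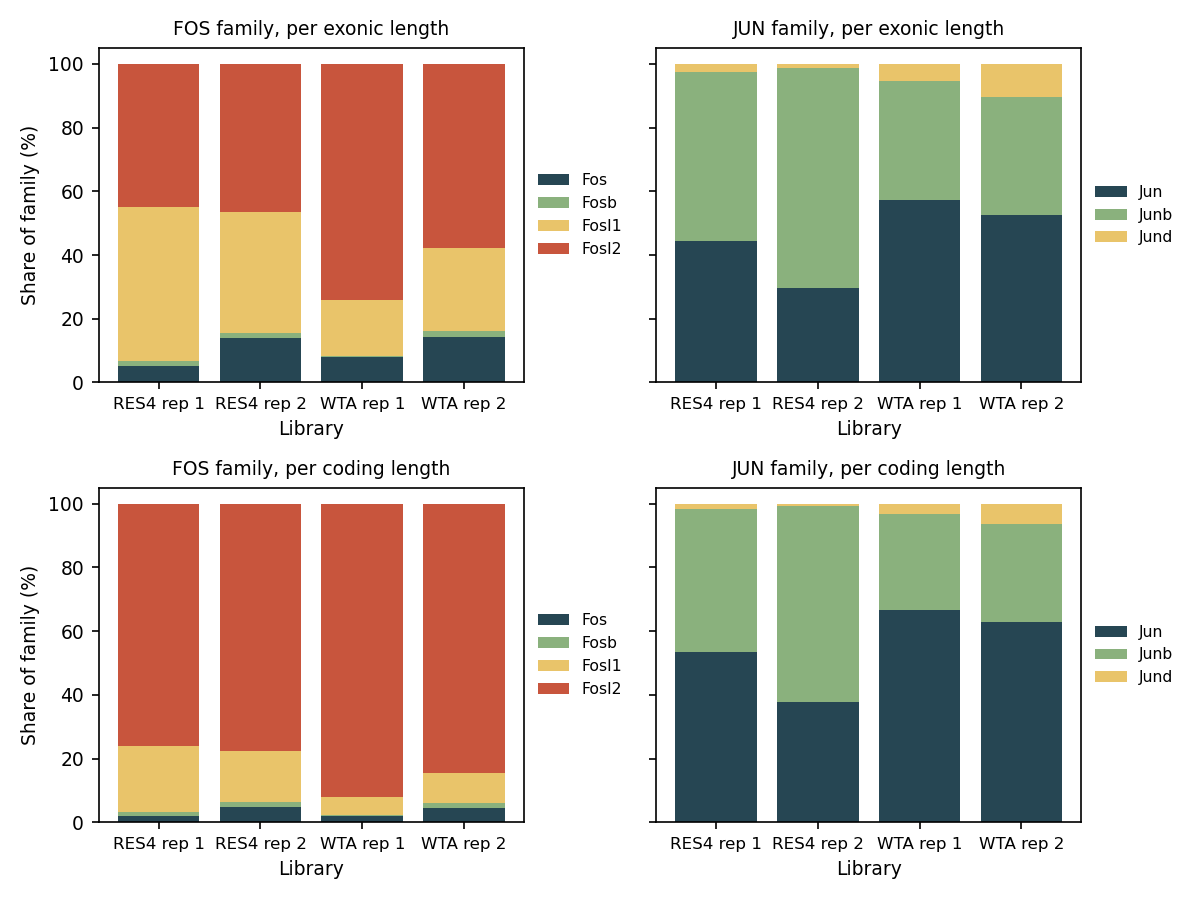
Share of each gene within the FOS family (left) and the JUN family (right) in each library, in percent of CPM per exonic length (top) or per coding length (bottom); the RES4 libraries are the left pair of bars. The Fosl1 and Junb bands are wider in both RES4 libraries than in either WTA library on both scales, while the leading gene of RES4 depends on the scale.

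Egr1, the zinc finger factor induced by serum and injury, had 421 and 163 reads in RES4, or 160.2 and 59.8 CPM, against 185 and 261 reads in WTA, or 45.8 and 43.9 CPM. Both RES4 libraries exceeded both WTA libraries, with RES4 replicate 1 well above replicate 2. The log2 fold change was 1.29 ± 0.44, a 2.45-fold difference (edgeR adjusted p = 0.0411). The call was not stable: without RES4 replicate 1 the log2 fold change was 0.42 (adjusted p = 0.297), without WTA replicate 1 it was 1.25 (adjusted p = 0.238), without WTA replicate 2 it was 1.21 (adjusted p = 0.291), and limma-voom gave 1.12 (adjusted p = 0.0642). In the authors' deposited table Egr1 has 1.26 ± 0.45 and was not called. Egr3, which EGR1 helps to induce in several cell types, had 8 and 5 reads in RES4 and 1 and 0 reads in WTA and was too low to be tested. Its RES4-to-WTA ratio of pooled reads was 21.9 (95% counting interval 3.30 to 932.7, exact binomial). Without the low-count filter it was called higher (adjusted p = 0.0147). Egr2, a close relative outside the 10 members and best known for driving myelination in Schwann cells, stood at 36.5 and 21.3 CPM in RES4 and at 44.6 and 61.3 CPM in WTA, a log2 difference of -0.87 ± 0.42 that did not pass (adjusted p = 0.139). Per kilobase Egr1 was 3.32 and 2.13 times as abundant as Egr2 in the RES4 libraries and 0.779 and 0.543 times in the WTA libraries. Egr2 was named after its value was seen.

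RES4 replicate 1 exceeded RES4 replicate 2 in 6 of the 9 tested members, and WTA replicate 1 exceeded WTA replicate 2 in 3. The same counts over all genes are not given here. The log2 ratio of replicate 1 to replicate 2 in RES4 was 1.42 for Egr1, 1.39 for Fosl1 and 1.0 for Fosl2, where its SD across tested genes was 0.736. In WTA the same ratio was 0.06, -0.27 and 0.66 for these genes, with an SD across genes of 0.492. The RES4 ratio was negative for Atf3 (-0.77), Junb (-0.61) and Fos (-0.34). The WTA replicates parted most for Fosb (-1.93) and Jund (-1.21), so uneven replicates were not particular to RES4.

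**Figure D3:**
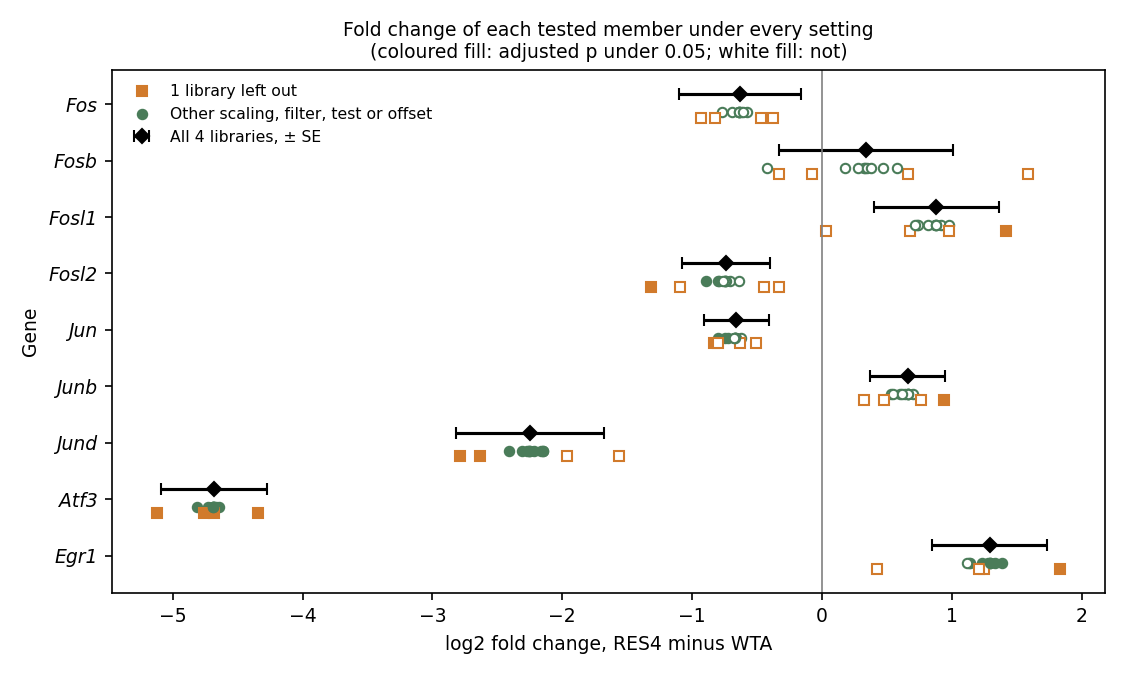
Log2 fold change (RES4 minus WTA) of the 9 tested members: black diamonds with SE use all 4 libraries, orange squares leave out 1 library, green circles change the scaling, filter, test or offset, and a filled square or circle has an adjusted p under 0.05. The squares and circles of Atf3 are all filled, between -5.12 and -4.34; Egr1 runs from 0.42 to 1.83 and Fosb lies on both sides of 0.

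Related factors of the same protein classes mostly did not pass. Of 27 listed bZIP, EGR and NAB genes, 22 were tested, 1 rose and 1 fell, against 15.5% and 13.9% of all tested genes. Their median log2 fold change was -0.11. Atf7, an AP-1 partner of the ATF2 type, rose by 1.41 ± 0.37 (edgeR adjusted p = 0.0127), but did not pass without WTA replicate 1 (adjusted p = 0.133) or 2 (adjusted p = 0.287). Batf3, a small bZIP protein that pairs with JUN, had 1 read in RES4 and 49 in WTA, a WTA-to-RES4 ratio of 29.0 (95% counting interval 4.97 to 1169.5); it missed the threshold without RES4 replicate 2 (adjusted p = 0.0539). Without RES4 replicate 1 the list had 1 higher and 5 lower, without RES4 replicate 2 it had 3 and 2, and with either WTA library left out 0 and 1.

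Of 29 tested regulators around serum response factor and the MAP kinases, which induce or phosphorylate these factors, 2 rose and 2 fell. Of all tested genes 15.5% rose and 13.9% fell. The list's median log2 fold change was -0.02. The p38 kinase gene Mapk13 had 26 reads in RES4 and 1 in WTA, a ratio of 43.9 (95% counting interval 7.21 to 1799.5), and another p38 gene, Mapk12, fell by 2.75 ± 0.59 on the log2 scale (edgeR adjusted p = 0.00356). Map2k6, which activates p38 kinases, rose by 1.28 ± 0.44 (adjusted p = 0.0446) and Rps6ka2, a kinase downstream of ERK, had -1.17 ± 0.41 (adjusted p = 0.0473). Neither of these passed without WTA replicate 1 (adjusted p = 0.362 and 0.432), WTA replicate 2 (0.207 and 0.106) or RES4 replicate 2 (0.121 and 0.110), nor did Map2k6 with library totals as scaling (adjusted p = 0.0629) or DESeq2 (adjusted p = 0.0742), or Rps6ka2 with a filter of at least 50 reads in 2 libraries (adjusted p = 0.0612). The list had 2 higher and 6 lower without RES4 replicate 1, 3 and 1 without RES4 replicate 2, and 1 and 1 with either WTA library left out.

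Other immediate-early genes changed in both directions. Of 33 listed genes 31 were tested, 8 rose and 9 fell, against 15.5% and 13.9% of all tested genes. Their median log2 fold change was -0.12. Sgk1, a serum- and glucocorticoid-induced kinase, rose by 2.48 ± 0.28 (edgeR adjusted p = 4.59e-05). Myc reached 424 and 434.9 CPM in RES4, against 95.6 and 110.7 CPM in WTA, a log2 fold change of 2.06 ± 0.25. Nfkbiz, a nuclear cofactor of NF-kB, rose by 2.27 ± 0.42. Gadd45a, a growth arrest and stress gene, fell to 6.47 and 8.44 CPM in RES4, against 87.5 and 100.5 CPM in WTA, a log2 fold change of -3.65 ± 0.42 (adjusted p = 5.08e-05). Csrnp1 had -1.76 ± 0.43 and the small GTPase gene Rhob -1.38 ± 0.35; neither passed without WTA replicate 2 (adjusted p = 0.0644 and 0.0660), nor did Rhob without WTA replicate 1 (adjusted p = 0.144). The list counts were 3 higher and 5 lower without WTA replicate 1, 3 and 1 without WTA replicate 2, and 8 and 6 without RES4 replicate 2.

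**Figure D4:**
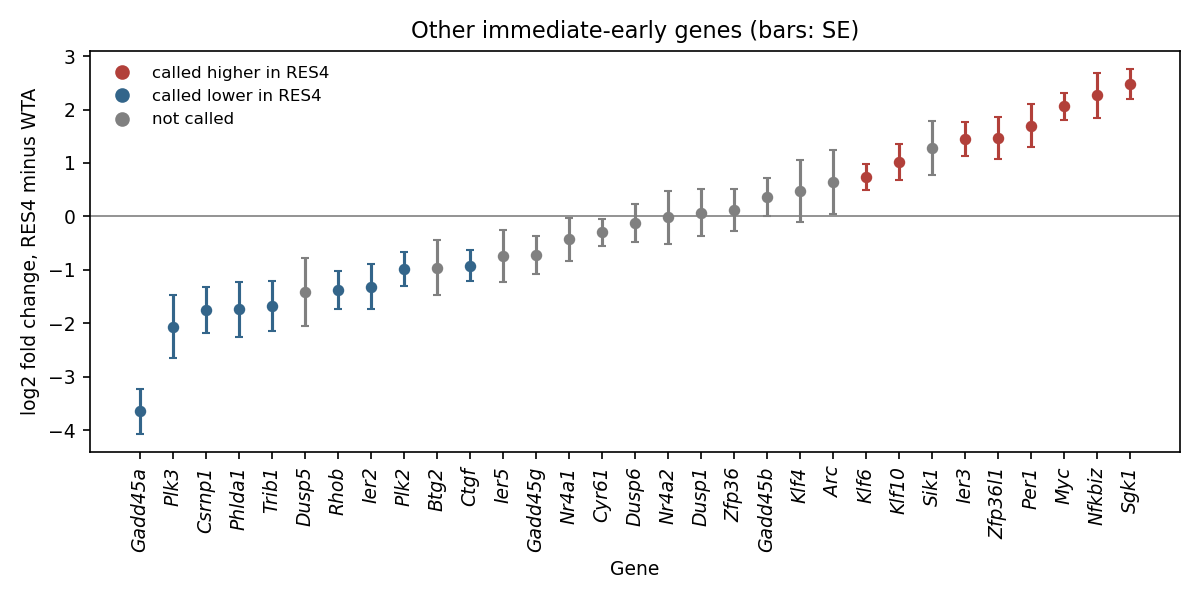
Log2 fold change (RES4 minus WTA) with SE of the 31 tested immediate-early genes outside the 10 members, sorted; red genes were called higher in RES4, blue called lower and grey not called. The list spreads on both sides of 0, with Gadd45a at -3.65 and Sgk1 at 2.48 as its ends.

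Among 25 genes with described AP-1 control, 23 were tested, 11 rose and 4 fell, against 15.5% and 13.9% of all tested genes. The median log2 fold change was 0.79, against -0.0036 for all tested genes. The list was chosen with earlier results of these data known, so these figures describe the list and test nothing about AP-1. The matrix metalloproteinase gene Mmp10 rose by 6.52 ± 0.55 (edgeR adjusted p = 8.69e-06), with 70.0 and 63.5 CPM in RES4, against 0.496 and 0.842 CPM in WTA. Mmp9 rose by 5.95 ± 0.56 and Plau, which encodes urokinase, by 3.32 ± 0.29. Those that fell included the cytokine genes Lif (-2.35 ± 0.48) and Il11 (-1.76 ± 0.45) and the EGFR ligand gene Hbegf (-1.31 ± 0.32). Il11 did not pass without WTA replicate 2 (adjusted p = 0.129), and Hbegf did not without WTA replicate 1 (adjusted p = 0.150) or 2 (adjusted p = 0.141). Without WTA replicate 1 the list had 9 higher and 2 lower, and without WTA replicate 2 it had 8 and 1. The fibroblast marker sums given above moved in the same direction as the metalloproteinases, and their part was not tested.

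Of 13 tested genes with described EGR1 control, 3 rose and 5 fell (median -0.11), against 15.5% and 13.9% of all tested genes. Whether Egr1 had a part in these changes was not tested. F3, the tissue factor gene, rose by 2.25 ± 0.33 (edgeR adjusted p = 2.53e-04), Thbs1 (thrombospondin) by 1.32 ± 0.21 and Vegfa by 1.34 ± 0.33. Pdgfb had 1 read in RES4 and 331 in WTA, a WTA-to-RES4 ratio of 196.1 (95% counting interval 34.9 to 7767.3). Pdgfa fell by 2.02 ± 0.37 on the log2 scale and the phosphatase gene Ptpn1 by 1.33 ± 0.36. Vegfa and Ptpn1 did not pass without WTA replicate 1 (adjusted p = 0.0942 and 0.183) or WTA replicate 2 (adjusted p = 0.342 and 0.109). The list had 2 higher and 2 lower with either WTA library left out. The AP-1 and EGR lists share Tgfb1, Cd44 and Vegfa.

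Immediate-early genes can also rise during tissue dissociation, together with heat shock genes. Of 15 heat shock genes, 2 rose and 2 fell, against 15.5% and 13.9% of all tested genes. Their median log2 fold change was 0.12. Hspa1a and Hspa1b, near-identical copies of the inducible HSP70 gene between which reads may be split, rose by 2.22 ± 0.67 and 2.46 ± 0.57 (edgeR adjusted p = 0.0241 and 0.00577), from at most 35 reads in a library. Hspa1a did not pass without any single library other than WTA replicate 2 (adjusted p from 0.0530 to 0.300), nor with DESeq2 (0.131) or read density offsets (0.0866), and Hspa1b did not without RES4 replicate 2 (0.0566) or WTA replicate 2 (0.119). The small heat shock gene Hspb1 had 1 read in RES4 and 494 in WTA, a WTA-to-RES4 ratio of 292.6 (95% counting interval 52.3 to 11580.9). Hsph1 had -1.24 ± 0.30 and did not pass without WTA replicate 1 (adjusted p = 0.119) or 2 (adjusted p = 0.211). The list had 1 higher and 2 lower without RES4 replicate 1, 0 and 2 without RES4 replicate 2, and 1 and 1 with either WTA library left out.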

How the data were processed

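Per the submitters' processing notes, the tools named are TopHat2 2.1.1, HTSeq 0.7.2, bcl2fastq 2, DESeq2 and Picard 1.62, and the build is mm9. What each tool did, and which gene annotation served, is not stated there. The labels describe both a TruSeq and a SMART-seq2 library preparation, without saying which library had which. The raw counts per gene symbol were tested as deposited. The deposited normalized signal, which the authors made by dividing counts by 1 factor per library, was not tested. Log2 fold changes, their SE, the score of the statistic column and p-values of the authors' deposited table were used only where named.

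Genes were kept by filterByExpr (minimum count 10) and scaled by TMM, and edgeR 4.0.16 in R 4.3.3 (glmQLFit, glmQLFTest, group as the only term) compared RES4 minus WTA, adjusting over all tested genes. The SE is the log2 fold change divided by the root of the F statistic. CPM use TMM-scaled library sizes, and pooled ratios use library totals. The counting intervals of pooled ratios hold counting error only. Replicates differed by more than that, with a chi-square per degree of freedom of 18.6 in RES4 and 11.8 in WTA. Exonic and coding lengths are unions from GENCODE M21 (GRCm38), used only as lengths and for overlaps. The procedure was run on simulated counts whose spread was fitted to these same libraries and in which few genes changed. That run cannot give the error rate here, where far more genes were called. Nothing says whether replicates were separate cultures or animals. The p-values set the group difference against the spread of the replicates, estimated with the help of all tested genes. That spread comes from these 4 libraries only and may be technical.

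The 10 members, the 6 gene lists and the 6 marker lists were chosen with earlier results of these data known. Genes named are all members; in each list up to 3 called genes of smallest adjusted p in each direction; the 2 markers of highest CPM per list; and the 3 genes nearest to the member of smallest adjusted p. Genes outside this rule are marked as such, or serve a marker count. Each result was recomputed with other scaling (upper-quartile factors, relative log expression, library totals), other filters (none, or 50 reads in 2 libraries), other tests (the likelihood ratio test, limma-voom with limma 3.58.1, DESeq2 1.42.0), the replicate block, each library left out and, chosen after seeing the data, offsets from a loess curve (span 0.5) of each library's log2 CPM deviation against reads per exonic base. Fits without 1 library assume that the lone library varies like the other group.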

Additional observations from a re-analysis of the deposited data

How the results depend on the processing

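Atf3 kept its direction and passed the test in all 14 alternatives. Of the members' results under the alternatives, 104 kept their direction and side of the threshold, 6 lost and 11 gained significance and 3 reversed, all 3 for Fosb (-0.42 with read density offsets, and from -0.33 to 1.59 with 1 library left out). Acta2, a marker that did not pass, also reversed (-0.07 with read density offsets, and from -0.11 to 0.49 with 1 library left out). The number of members called higher, 1, became 2 without a low-count filter and 0 with limma-voom; the number called lower, 2, became 4 with library totals, with no low-count filter and with the replicate block. Scaling by library totals shifted the all-gene median by -0.14 (log2) and the share of calls that were higher to 44.7%, from 52.7%.

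For related bZIP and EGR genes, the number called lower, 1, became 2 with relative log expression factors, upper-quartile factors, no filter, the likelihood ratio test and limma-voom, 3 with library totals, 4 with the replicate block and 0 with at least 50 reads in 2 libraries, which removes Batf3. For SRF and MAPK regulators, 2 higher became 1 with library totals, at least 50 reads and DESeq2, and 2 lower became 4 with library totals and no filter, 5 with the replicate block and 1 with at least 50 reads. For heat shock genes, 2 higher became 0 with at least 50 reads, which removes Hspa1a and Hspa1b, 1 with read density offsets and DESeq2, and 4 with limma-voom. The cause of the other shifts was not tested.

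With 1 library left out, all genes called higher ran from 1078 to 2024 and lower from 951 to 2323; members from 0 to 2 and from 1 to 4; related bZIP and EGR genes from 0 to 3 and from 1 to 5; SRF and MAPK regulators from 1 to 3 and from 1 to 6; immediate-early genes from 3 to 8 and from 1 to 7; AP-1 targets called lower from 1 to 4; EGR targets called lower from 2 to 5; heat shock genes from 0 to 1 and from 1 to 2.

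Without division by length the FOS family shares were 15.7% (RES4) and 6.35% (WTA) for Fosl1, 78.7% and 88.9% for Fosl2 and, in WTA, 3.80% for Fos, and the WTA shares of Jun and Junb were 64.0% and 31.2%. With coding length they were 18.3% and 7.53% for Fosl1, 76.8% and 88.3% for Fosl2, 3.32% and 3.23% for Fos, and in WTA 64.7% for Jun and 30.6% for Junb.

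The replicate numbers share only a name in the labels. The replicate 1 minus 2 differences correlated at 0.217 between the groups across genes, and the replicate block called 2257 genes higher and 2267 lower. Low counts limit what Fosb, Egr3, Jund and Batf3 can show.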
